A study of Mus musculus with 4 samples.

Results

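The Reg family comprises small secreted C-type lectins, and its 7 mouse genes Reg1, Reg2, Reg3a, Reg3b, Reg3d, Reg3g and Reg4 were read here by every probe set that the platform annotation assigns to them. These were 8 of the 45037 probe sets in the deposited table, 2 for Reg3b and 1 for each other gene, and the genes were 7 of the 18193 represented. The table holds 4 Affymetrix mouse expression arrays of colonic epithelial cells, 1 array per genotype. The genotypes were DKO (Bmi1ΔIEC together with Mel18ΔIEC), Bmi1ΔIEC, Mel18ΔIEC and WT, where ΔIEC marks a deletion in intestinal epithelial cells. Bmi1 and Mel18 (gene symbol Pcgf2) are related subunits of Polycomb repressive complex 1, which keeps target genes silent. All mice were C57BL/6, sex-matched and 6 to 8 weeks old, and all received azoxymethane, a colon carcinogen, at 10 mg/kg. From 5 days later they drank 3.5% dextran sulfate sodium, which injures the epithelium and causes colitis, for 5 days. Cells were shaken off the colon with EDTA on day 12, and the labels mention no sort. The Cre line behind the deletions, the exons removed, the alleles carried by the WT mice and the number of mice per array are not given in the sources used here. With 1 array per genotype no difference below has a replicate check, and no p-value or error between animals can be given.

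Reg3b and Reg3g are antibacterial proteins of the gut surface. In mice, Reg3g binds the peptidoglycan of Gram-positive bacteria and helps to keep bacteria away from the epithelium, and both genes are induced by interleukin 22 through STAT3 and by MyD88 signalling after bacterial contact or injury. Reg1 and Reg2 are best known from the exocrine pancreas and its regeneration, and Reg4 marks secretory cells at the base of the colonic crypt as well as enteroendocrine cells.

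Only Reg3b, Reg3g and Reg4 reached the floor, the median of all probe-set values at 33.4 intensity units, on any array. Reg3b and Reg3g were brightest on the array labelled DKO, intermediate on the WT array and under the floor on the arrays labelled Bmi1ΔIEC and Mel18ΔIEC. With values under the floor raised to it, their spans over the 4 arrays were at least 8.91 for Reg3b (8.31 by its second probe set) and 8.89 for Reg3g on the log2 scale. These ranked 1 and 2 among the 12154 genes that reached the floor on an array, whose median span was 0.50 on the same scale. Reg4 was bright on all 4 arrays and spanned 1.22, in another order: highest on the array labelled Bmi1ΔIEC and lowest on the WT array.

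The targeted genes go against a loss of the Bmi1 transcript, so the arrays are called by their labels. The Bmi1 probe sets read 432 and 399 units on the array labelled DKO, 334 and 339 on that labelled Bmi1ΔIEC, 160 and 135 on that labelled Mel18ΔIEC, and 116 and 88.4 on the WT array. The brighter Pcgf2 probe set lay near the floor, between 30.2 and 39.8 units on every array, and was highest on the array labelled Mel18ΔIEC. It was under the floor on the array labelled DKO and on the WT array. Loss of the Pcgf2 transcript therefore could not be checked, because the WT signal itself was at background. The other Pcgf2 probe set stayed under the floor, with 11.5, 12.6, 10.6 and 9.53 units on the arrays labelled DKO, Bmi1ΔIEC, Mel18ΔIEC and WT. Whether these probes lie in the deleted exons is not given. Epithelial identity was clear on each array, where all 11 epithelial markers checked lay above the floor. Array medians ran from 32.1 to 34.2 units.

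Reg3b, at chr6:78370885-78373466 (GRCm38.p6), had 2 probe sets, and both gave the same order of arrays. The first (1416297_s_at) read 16063 units on the array labelled DKO, 19.1 on that labelled Bmi1ΔIEC, 18.6 on that labelled Mel18ΔIEC and 731 on the WT array. The second (1448290_at) read 10572 units on the array labelled DKO, 18.5 on that labelled Bmi1ΔIEC, 15.3 on that labelled Mel18ΔIEC and 999 on the WT array. Reg3b signal was thus present on the WT array, not above the floor on either array with a single targeted gene, and much brighter on the array labelled DKO. The ratio of DKO to WT was 22.0 by the first probe set and 10.6 by the second, so its size depends on the probe set read. The suffix _s_at marks probes that can match more than 1 transcript, and the second probe set has no such suffix.

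Reg3g, at chr6:78466269-78468874, had 1 probe set (1448872_at), which read 15800.4 units on the array labelled DKO. It read 20.8 units on the array labelled Bmi1ΔIEC, 28.8 on that labelled Mel18ΔIEC and 523 on the WT array. The order was that of Reg3b except that the 2 values under the floor stood the other way round, and values under the floor have no dependable order. The ratio of DKO to WT was 30.2. On the array labelled DKO, whose brightest probe set of any gene read 22363 units, both genes were thus near the top of the scale.

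**Figure D1:**
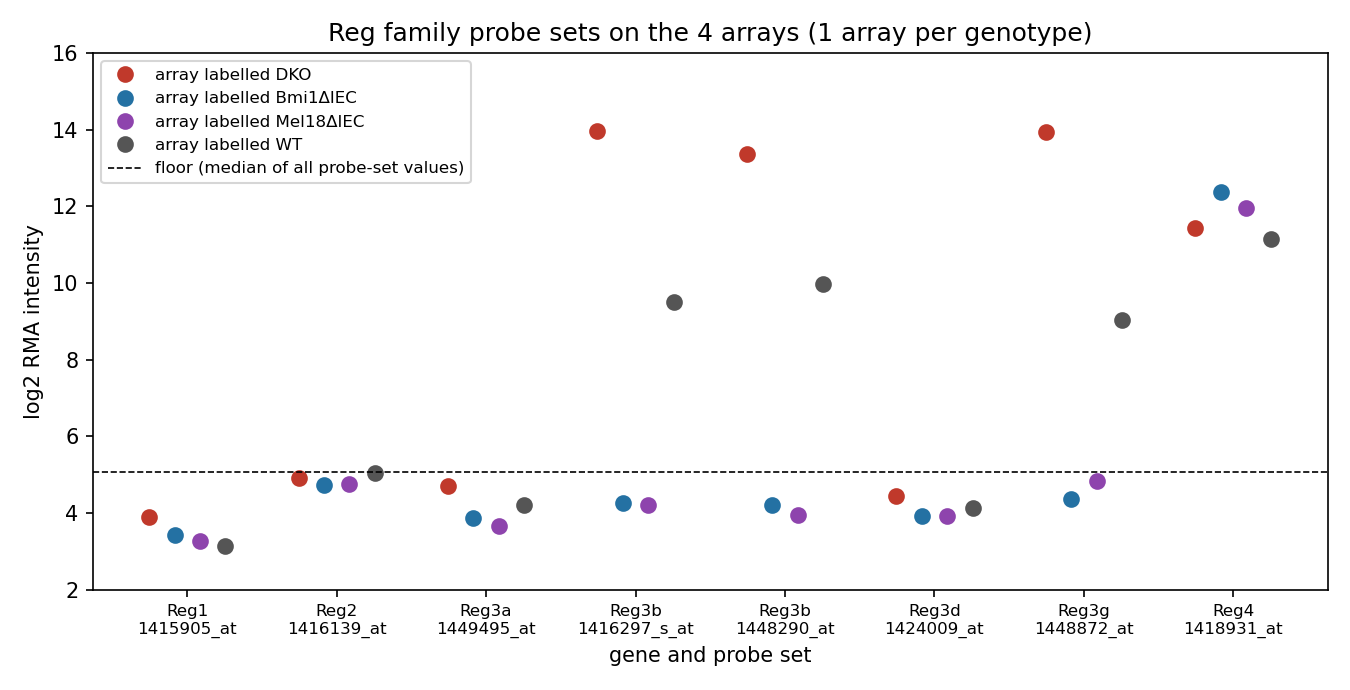
Log2 RMA intensity (y axis) of each Reg family probe set (x axis) on the 4 arrays, 1 point per array, with the floor as a dashed line. The 3 probe sets of Reg3b and Reg3g lie from 13.4 to 14.0 on the array labelled DKO, from 9.03 to 9.96 on the WT array and under the floor on the other arrays, while Reg4 is above the floor on all 4.

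The other 4 genes never reached the floor, so their differences may be background signal. Reg1, a pancreatic family member at chr6:78425983-78428668, read 14.8 units on the array labelled DKO, 10.7 on that labelled Bmi1ΔIEC, 9.69 on that labelled Mel18ΔIEC and 8.90 on the WT array. Reg2, at chr6:78405155-78408099, came closest to the floor with 29.9, 26.8, 26.9 and 33.0 units on the arrays labelled DKO, Bmi1ΔIEC, Mel18ΔIEC and WT. Reg3a, a further member of the Reg3 group at chr6:78380709-78383839, read 25.9, 14.5, 12.7 and 18.6 units in that order of arrays. Reg3d, at chr6:78375874-78378865, read 21.8, 15.2, 15.2 and 17.5 units. Reg3a and Reg3d were highest on the array labelled DKO and next highest on the WT array, as Reg3b and Reg3g were, but within 1.03 and 0.52 on the log2 scale.

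The clustered genes that varied and those that did not lie side by side. Reg1, Reg2, Reg3a, Reg3b, Reg3d and Reg3g lie within 98 kb of chromosome 6, and Reg3b and Reg3g are the outermost of the 6, with the 4 genes under the floor between them. Of the 5 annotated genes on each side of this cluster, 3 of 10 had a probe set with 1 gene symbol, and none came near the floor. Lrrtm1, a neuronal adhesion gene, read between 15.0 and 18.2 units, and the non-coding 6330415B21Rik and Gm20362 read at most 8.29 and 6.06. Reg4 lies apart at chr3:98222138-98236748. Of its 10 nearest annotated genes, 3 had such a probe set, and none differed by 2-fold in any of the 5 comparisons. Notch2, a receptor of cell fate decisions, read 157, 201, 150.4 and 152 units on the arrays labelled DKO, Bmi1ΔIEC, Mel18ΔIEC and WT. Phgdh, an enzyme of serine synthesis, read 186, 213, 171 and 216 in that order, and the zinc finger gene Zfp697 30.4, 36.2, 38.8 and 48.6.

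**Figure D2:**
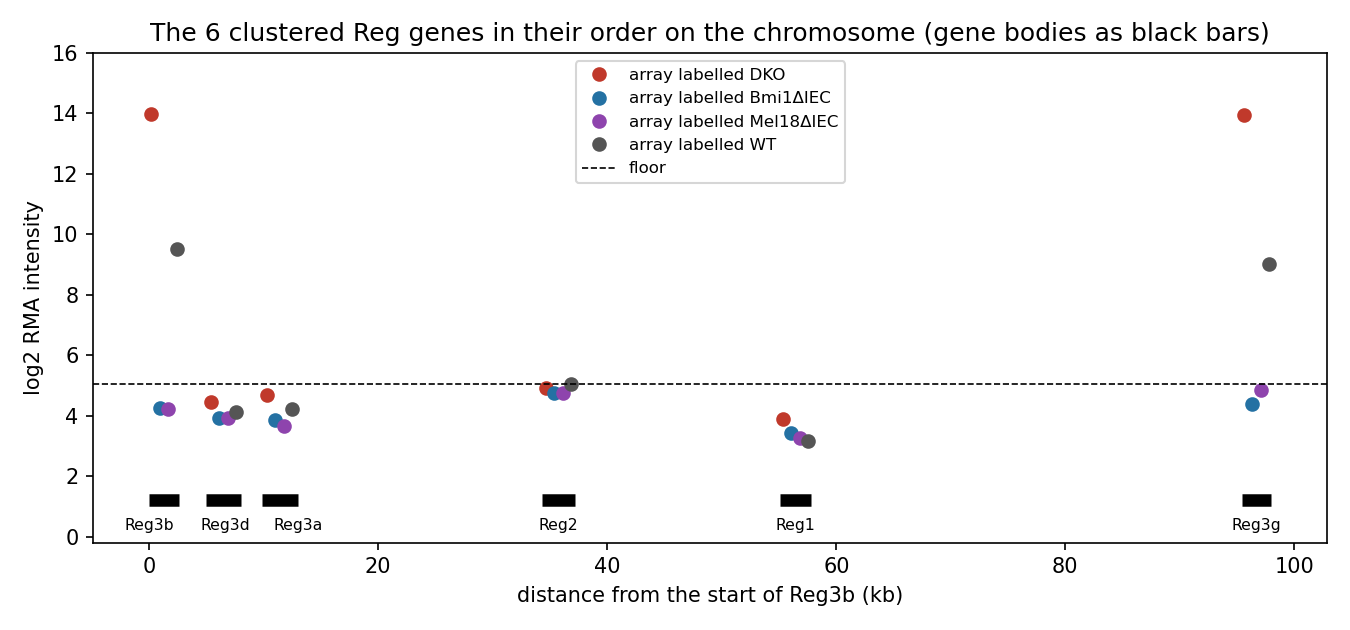
Log2 RMA intensity (y axis) of the 6 clustered Reg genes against distance from the start of Reg3b in kb (x axis). Black bars are gene bodies, points are the 4 arrays set slightly apart for legibility, and the dashed line is the floor; only the outermost genes, Reg3b and Reg3g, rise above it.

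The upstream sequences of Reg3b and Reg3g are shown because these genes gave almost the same pattern from opposite ends of the cluster and opposite strands. Each line gives the 250 bases before the annotated start (RefSeq, GRCm38.p6), 5′ to 3′ on the strand of the gene. Capitals mark stretches of at least 10 bases found in both the Reg3b and the Reg3g sequence, with overlapping stretches joined. Reg3d, the neighbour of Reg3b that stayed under the floor, is given for comparison, with capitals where it shares such a stretch with either. The regions are chr6:78370635-78370884 on the plus strand for Reg3b, chr6:78468875-78469124 on the minus strand for Reg3g and chr6:78378866-78379115 on the minus strand for Reg3d.
Reg3b: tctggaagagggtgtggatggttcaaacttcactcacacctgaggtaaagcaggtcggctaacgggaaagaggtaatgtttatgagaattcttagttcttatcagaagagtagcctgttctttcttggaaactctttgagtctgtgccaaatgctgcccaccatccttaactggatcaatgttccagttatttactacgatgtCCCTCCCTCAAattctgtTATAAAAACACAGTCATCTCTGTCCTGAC
Reg3g: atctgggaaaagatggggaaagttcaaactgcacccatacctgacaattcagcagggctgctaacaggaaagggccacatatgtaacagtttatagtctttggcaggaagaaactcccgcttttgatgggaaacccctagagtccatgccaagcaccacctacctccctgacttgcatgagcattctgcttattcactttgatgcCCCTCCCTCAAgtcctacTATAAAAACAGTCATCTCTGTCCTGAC
Reg3d: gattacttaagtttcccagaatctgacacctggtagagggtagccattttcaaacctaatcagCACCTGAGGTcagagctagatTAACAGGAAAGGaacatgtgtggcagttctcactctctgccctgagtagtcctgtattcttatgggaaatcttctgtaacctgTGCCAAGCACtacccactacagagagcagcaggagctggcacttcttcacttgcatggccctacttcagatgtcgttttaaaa
Reg3b and Reg3g were identical at 173 of 253 aligned columns (68.4%), while the other 20 pairs of Reg genes ranged from 44.9% to 56.9%. All 7 genes had a RefSeq window, and the pair next in identity was Reg1 and Reg2. The window of Reg4, chr3:98221906-98222155, overlaps the beginning of the gene span given above, because the sequence table sets it on a later start. The capitals at the 3′ end cover 29 bases in Reg3b and 27 in Reg3g. They join overlapping shared stretches and so are not identical, but both begin with TATAAA, the core of a TATA box. Searched on both strands, TATAAA occurred in 4 of the 7 Reg windows, those of Reg1, Reg2, Reg3b and Reg3g, and in 12.4% of 32851 RefSeq windows of the same length. On the strand of the gene it began between 27 and 30 bases before the start in all 4. The STAT pattern TTCNNNGAA, which reads the same on both strands, occurred once in Reg3b (TTCTTGGAA, 129 bases before the start) and once in Reg3d (TTCCCAGAA, 238 bases before the start), and in 7.02% of all windows. The letters TTCNNNGAA are not in the Reg3g window. Such matches describe the sequence and say nothing of binding in these cells.

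For the comparisons, a gene with several probe sets was read by the brightest on average, and a gene counts as higher or lower when it differed at least 2-fold with its higher value at or above the floor. Between the arrays labelled DKO and WT, 2 of the 7 Reg genes were higher and none lower, while 2.13% of 11853 genes tested were higher and 2.19% lower. The log2 differences were 4.92 for Reg3g and 4.46 for Reg3b, ranks 5 and 8 from the top. Reg4 differed by 0.30 and was not called. The median over all 7 genes was 0.48, against -0.01 over all genes tested, but 4 of the 7 lay under the floor on both arrays.

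Between the arrays labelled Bmi1ΔIEC and WT, 1 Reg gene was higher and 2 were lower, against 5.76% and 2.86% of 11934 genes tested. Reg3b differed by -5.26 and Reg3g by -4.65, ranks 4 and 8 from the bottom. Because the lower values lie under the floor, only a bound can be given: set against the floor, Reg3b was at least 21.9-fold and Reg3g at least 15.7-fold lower on the array labelled Bmi1ΔIEC. Reg4 was higher by 1.22, but by 0.99 and so not called once arrays were centred on brighter genes, those that reach the floor. The median over the 7 genes was -0.30, against 0.13 over all genes tested. Of all genes called, 66.8% were higher as deposited, 76.1% after centring arrays on their medians and 38.2% after centring them on brighter genes only, while the median gene differed by 0.13, 0.22 and -0.12.

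Between the arrays labelled Mel18ΔIEC and WT, no Reg gene was higher and 2 were lower, against 3.15% and 2.5% of 11862 genes tested. Reg3b differed by -5.30, rank 2 from the bottom, and Reg3g by -4.18, rank 6. Against the floor these are again at least 21.9-fold and at least 15.7-fold lower, since the WT array sets both bounds. Reg4 differed by 0.82 and was not called. The median over the 7 genes was -0.29, against 0.07 over all genes tested. Here 55.8% of the called genes were higher as deposited and 36.6% after centring on brighter genes.

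The array labelled DKO was also set against each array with a single targeted gene. As measured, Reg3b and Reg3g ranked 1 and 2 from the top of all genes in both comparisons. Against Bmi1ΔIEC, 2 Reg genes were higher and none lower, with 4.3% and 7.96% of 11966 genes tested higher and lower. Reg3b differed by 9.72 and Reg3g by 9.57, and Reg4 by -0.93. Of all genes called, 35.1% were higher as deposited and 61.4% after centring on brighter genes. Against Mel18ΔIEC, 2 were higher and none lower, with 3.84% and 4.53% of 11879 genes tested higher and lower. Reg3b differed by 9.76 and Reg3g by 9.10, and Reg4 by -0.52. Here 45.9% of called genes were higher as deposited and 62.8% with that centring. Set against the floor, Reg3b was at least 317-fold higher by its second probe set and at least 482-fold by its first on the array labelled DKO than on either, and Reg3g at least 474-fold. These comparisons share the array labelled DKO, as the earlier ones share the WT array, so agreement among them is not independent.

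**Figure D3:**
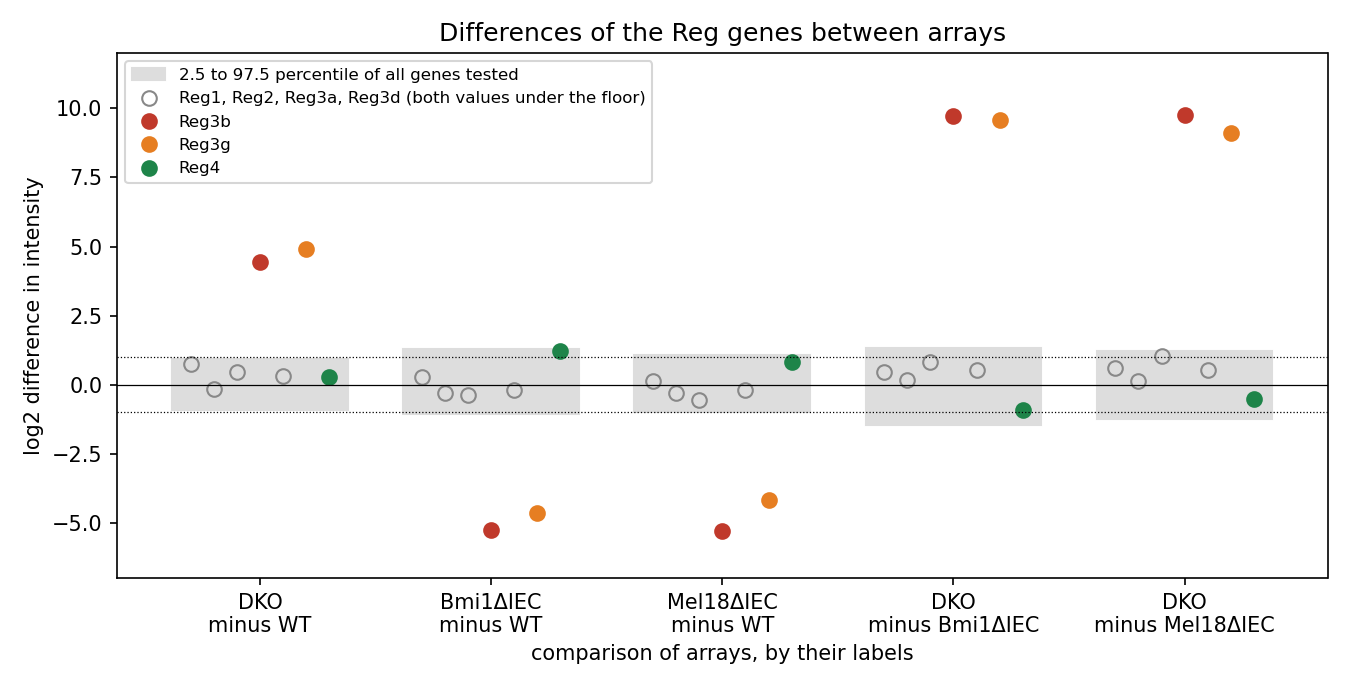
Log2 difference (y axis) of the 7 Reg genes in the 5 comparisons of arrays (x axis), with the span of all genes tested but the outermost 5% as a grey band and the 2-fold rule as dotted lines. Filled points have a higher value at or above the floor; Reg3b and Reg3g lie outside the band in all 5 comparisons and Reg4 inside it.

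Loss of the same gene by label went with opposite differences of Reg3b and Reg3g depending on the other genotype. The difference between Bmi1ΔIEC and WT was -5.26 for Reg3b and -4.65 for Reg3g, and that between DKO and Mel18ΔIEC, which uses neither array, was 9.76 and 9.10. For Mel18 the corresponding values were -5.30 and -4.18 between Mel18ΔIEC and WT, and 9.72 and 9.57 between DKO and Bmi1ΔIEC. The non-additive term, the DKO value minus both other knockout values plus the WT value on the log2 scale, was 15.0 for Reg3b and 13.8 for Reg3g, ranks 1 and 3 of 12154 genes. With values under the floor raised to it, the terms were 13.4 and 12.9. A positive term of at least 1 was found for 8.7% of genes and a negative one for 18.6%. Reg4 had a term of -1.75, rank 699 from the bottom, in the direction that was the commoner on these arrays as deposited. After centring on brighter genes the Reg4 term was -1.35, and the shares of all genes were not counted with that centring.

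**Figure D4:**
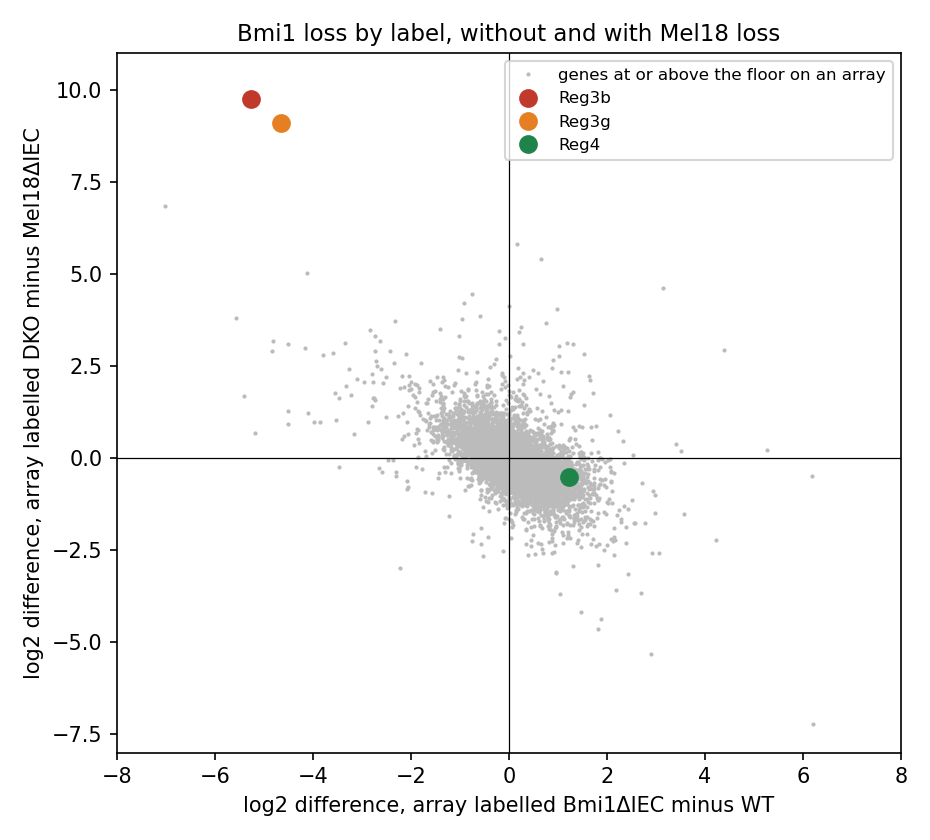
Log2 difference between the arrays labelled DKO and Mel18ΔIEC (y axis) against that between the arrays labelled Bmi1ΔIEC and WT (x axis), 1 grey point per gene at or above the floor on an array. Reg3b and Reg3g stand at the upper left, negative on the x axis and above 9 on the y axis; Reg4 lies inside the cloud at 1.22 and -0.52.

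Reg4, read by 1418931_at, gave 2776 units on the array labelled DKO, 5284 on that labelled Bmi1ΔIEC, 3983 on that labelled Mel18ΔIEC and 2261 on the WT array. The ratios to WT were 1.23, 2.34 and 1.76 for DKO, Bmi1ΔIEC and Mel18ΔIEC. Which of these neighbours in the order differ beyond the spread between animals cannot be told from single arrays. Among the 13 goblet and deep crypt secretory markers, Kit, Dll1, Atoh1 and Foxa1 shared the order of Reg4 (30.8%), as did 12.5% of all genes at or above the floor; this comparison of orders was chosen after the values were seen. Kit, the receptor tyrosine kinase of deep crypt secretory cells, read 89.9, 259, 190 and 73.8 units on the arrays labelled DKO, Bmi1ΔIEC, Mel18ΔIEC and WT. Atoh1, the master factor of secretory fate, read 585, 871, 817 and 438. The mucin Muc2 and the IgG Fc binding protein Fcgbp, abundant goblet cell products, ran differently, with Fcgbp at 13349, 3813, 8439 and 8564 units. In this list 1 of 13 members was higher and none lower on the array labelled DKO than on WT, 1 higher and 1 lower on that labelled Bmi1ΔIEC, and 1 higher and none lower on that labelled Mel18ΔIEC. A single member is 7.69% of the list, against 2.13% of all genes higher for DKO, 5.76% higher and 2.86% lower for Bmi1ΔIEC and 3.15% higher for Mel18ΔIEC. None of the 14 enteroendocrine markers that reached the floor shared the order of Reg4, and 5 of 13 tested were higher and none lower between DKO and WT.

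The genes whose profiles lay nearest to each Reg gene were found by Euclidean distance between mean-centred log2 values over the 4 arrays, among 11629 other genes. Reg3b and Reg3g were each other's nearest at 0.80. The next were far off. Gbp2b, an interferon-induced GTPase, stood at 2.86 from Reg3b and 3.08 from Reg3g, with 2787 units on the array labelled DKO, 14.4 on that labelled Bmi1ΔIEC, 24.3 on that labelled Mel18ΔIEC and 1866 on the WT array. The platelet chemokine Ppbp, the neutrophil calprotectin subunit S100a9 and the cell cycle inhibitor Cdkn2a made up the rest of both lists, at distances from 4.08 to 4.80. Of these 4 genes Cdkn2a alone was called higher on the array labelled DKO than on WT, by 5.97, while Gbp2b, Ppbp and S100a9 differed by 0.58, 0.28 and -0.06. Near Reg4 the distances were small, from 0.05 for Tceanc to 0.08 for Eif2a, a translation initiation factor, with Pbld2, the amino acid transporter gene Slc7a8 and Vmac between them. A modest profile such as that of Reg4 has many close neighbours on 4 arrays.

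Of 22 listed cytokines and receptors linked to the induction of Reg3 genes, 18 had a probe set with 1 gene symbol. Il22 itself, Il17f, Il11ra1 and Il23r had none and were not analysed here. Between the arrays labelled DKO and WT none of 13 tested was higher and 1 was lower, against 2.13% and 2.19% of all genes. Il22ra1, the epithelial receptor chain for interleukin 22, read 161 units on the array labelled DKO, 71.8 on that labelled Bmi1ΔIEC, 88.7 on that labelled Mel18ΔIEC and 82.1 on the WT array. Its difference between DKO and WT was 0.97, just short of 2-fold. Il1b, an inflammatory cytokine, read 928, 96.2, 129 and 1161 units in the same order of arrays, and the oncostatin M receptor Osmr 34.4, 39.4, 35.8 and 203. Osmr was low on all 3 knockout arrays, including the array labelled DKO on which Reg3b and Reg3g were highest. Between Bmi1ΔIEC and WT, 1 of 12 tested was higher and 3 lower, against 5.76% and 2.86% of all genes. Between Mel18ΔIEC and WT 1 of 12 was higher and 2 lower, against 3.15% and 2.5%. The higher gene was Il1r1, a receptor for interleukin 1, in both.

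Of 15 measured genes of JAK-STAT3 and MyD88 signalling, none was called between DKO and WT, and only Socs3 was called, as lower, between each other knockout and WT. Of all genes tested, 2.86% were lower for Bmi1ΔIEC and 2.5% for Mel18ΔIEC. Socs3, the feedback inhibitor that STAT3 induces, read 1652 units on the array labelled DKO, 436 on that labelled Bmi1ΔIEC, 479 on that labelled Mel18ΔIEC and 979 on the WT array. The arrays thus ordered as for the Reg3 genes, with a difference of 0.76 between DKO and WT. Stat3 itself read 993, 722, 817 and 891 units. In this list 5 of 14 genes that reached the floor (35.7%) were highest on the array labelled DKO and second on the WT array, against 13.1% of all such genes, a comparison also chosen after the values were seen. The share was not particular to signalling genes: it was 54.5% of general epithelial markers, 36.4% of colonocyte markers, 35% of STAT3-induced genes and 33.3% of other antimicrobials.

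Among 20 measured epithelial genes known as STAT3-induced, Socs3 included, 1 was higher and 4 were lower between DKO and WT, with a median of -0.23 against -0.01 over all genes tested. Between Bmi1ΔIEC and WT 1 was higher and 8 lower, with a median of -0.82 against 0.13, and between Mel18ΔIEC and WT none was higher and 7 lower, with a median of -0.77 against 0.07. Of all genes tested, 2.13% were higher and 2.19% lower for DKO, 5.76% and 2.86% for Bmi1ΔIEC, and 3.15% and 2.5% for Mel18ΔIEC. The lower genes on both arrays with a single targeted gene include S100a8 and S100a9, which are also listed as neutrophil markers. Lrg1, a leucine-rich acute-phase glycoprotein, read 59.3 units on the array labelled DKO, 13.1 on that labelled Bmi1ΔIEC, 37.2 on that labelled Mel18ΔIEC and 476 on the WT array. The serum amyloid gene Saa3 read 148, 67.9, 72.6 and 786 in that order, and the metalloreductase Steap4 58.4, 528, 139 and 253. These 3 genes were lower on the array labelled DKO than on WT, where Reg3b and Reg3g were higher. The fucosyltransferase Fut2 at 1401, 525, 739 and 1265 units and the kinase Pim1 at 521, 244, 233 and 328 followed the order of the Reg3 genes. Both were chosen for that order after the values were seen.

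**Figure D5:**
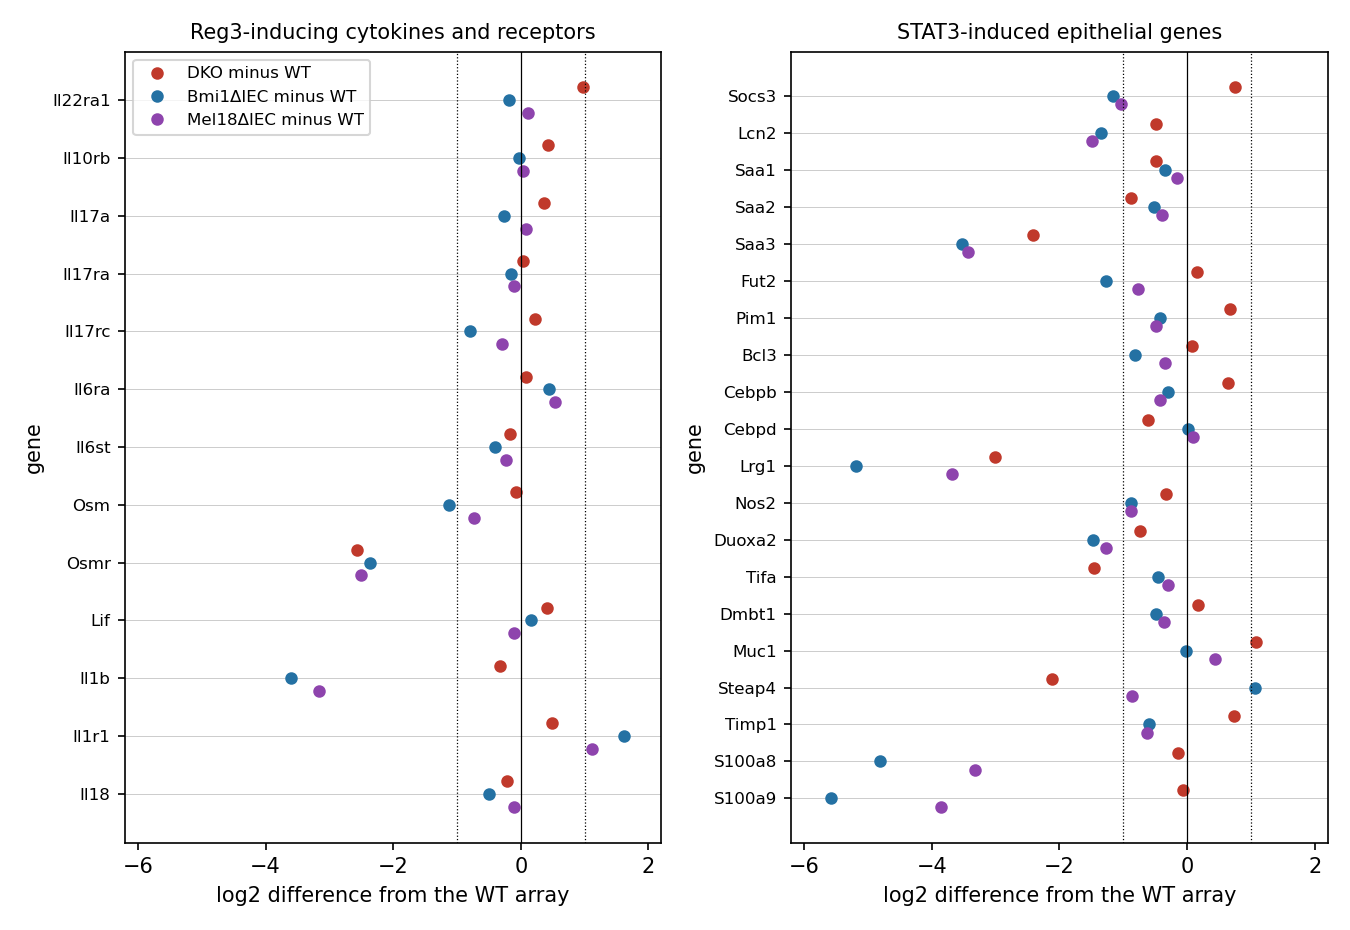
Log2 difference from the WT array (x axis) of each measured gene at or above the floor (y axis), 1 point per knockout array. The left panel holds cytokines and receptors linked to the induction of Reg3 genes, the right panel STAT3-induced epithelial genes. Dotted lines mark 2-fold; the array labelled DKO lies above the others for Socs3, Fut2 and Pim1 and well under WT for Osmr, Lrg1 and Saa3.

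Transcripts of 3 proteins reported to bind or act with Reg family members differed by less than 2-fold in the 5 comparisons, with 1 exception. Extl3, a reported receptor for Reg proteins, read 214, 215, 221 and 206 units on the arrays labelled DKO, Bmi1ΔIEC, Mel18ΔIEC and WT. Egfr, which Reg4 is reported to engage in human tumour cells, read 243, 196, 226 and 246. Cd44, a surface glycoprotein linked to Reg4 in the colon, read 243, 182, 123 and 248, and its difference of -1.01 between Mel18ΔIEC and WT was the only one of these called. In that comparison 2.5% of all genes tested were lower.

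Among other secreted antimicrobials, none of 15 tested was higher and 3 were lower on the array labelled DKO than on WT, against 2.13% and 2.19% of all genes, with a median of -0.06 against -0.01 over all genes tested. The phospholipase Pla2g2a read 35.4 units on the array labelled DKO, 114 on that labelled Bmi1ΔIEC, 279 on that labelled Mel18ΔIEC and 534 on the WT array. The ribonuclease Ang4 read 50.1, 354, 307 and 244 in that order, and the goblet cell product Retnlb 716, 116, 298 and 2665. On the arrays labelled Bmi1ΔIEC and Mel18ΔIEC, 9 and 6 of 15 were lower than on WT and none higher, against 2.86% and 2.5% of all genes lower. The 9 include S100a8, S100a9, Ltf and Lyz2, and the 6 include S100a8, S100a9 and Ltf. These genes are also listed as neutrophil or macrophage markers, so the counts of the lists overlap. The order of the Reg3 genes was shared by 5 of 15, Lyz1, Lyz2, Pglyrp1, Slpi and Dmbt1. Of these the protease inhibitor Slpi read 13527, 1473, 2388 and 9492 units on the arrays labelled DKO, Bmi1ΔIEC, Mel18ΔIEC and WT, a difference of 0.51 between DKO and WT.

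Some immune cell markers were lower on the arrays labelled Bmi1ΔIEC and Mel18ΔIEC than on WT, as Reg3b and Reg3g were, and 3 were higher on the array labelled DKO than on WT. Their part in the result was not tested. Of the 14 neutrophil markers 12 were measured. Their summed level was 2253 units on the array labelled DKO and 2386 on the WT array. It was 296 on the array labelled Bmi1ΔIEC and 391 on that labelled Mel18ΔIEC. On the arrays labelled DKO and WT the sum was carried by S100a8 (851 and 935 units) and S100a9 (731 and 762). Both are also listed as STAT3-induced epithelial genes and as antimicrobials, so the sum is not a measure of neutrophils alone. Cxcr2, Mpo, Camp and Mmp8 lay under the floor on every array. Between DKO and WT none of 8 neutrophil markers tested was called, while 4 of 7 were lower on each other knockout array than on WT. Over all genes tested against WT, 2.13% were higher and 2.19% lower for DKO. The shares lower were 2.86% for Bmi1ΔIEC and 2.5% for Mel18ΔIEC. T, NK and innate lymphoid cell markers, 12 of 14 measured, summed to 1864, 725, 547 and 976 units in that order of arrays, with 3 of 10 higher between DKO and WT. The 3 were Gzma, Gzmb and Cd3g. Gzma, a protease of cytotoxic granules, read 683 units on the array labelled DKO, 100.4 on that labelled Bmi1ΔIEC, 69.0 on that labelled Mel18ΔIEC and 203 on the WT array, and Gzmb 312, 79.5, 47.8 and 154 in that order. Cd3g, a chain of the T cell receptor complex, read 142, 68.6, 44.3 and 62.1 units. Against WT, 1 of 10 was lower for Bmi1ΔIEC and 3 for Mel18ΔIEC. The innate lymphocyte receptor Ncr1 stayed under the floor on every array, at most 19.0 units. The 12 macrophage markers summed to 4144, 2593, 2278 and 3829 units, with none of 11 called between DKO and WT, 6 lower between Bmi1ΔIEC and WT and 3 lower between Mel18ΔIEC and WT. In the lymphoid and macrophage lists 8 of 10 and 8 of 11 genes at or above the floor were highest on the array labelled DKO and second on WT. The neutrophil list held 4 of 8 such genes (50%), against 13.1% of all genes. These comparisons of orders were chosen after the values were seen. In bulk RNA, fewer cells of a type and less RNA per cell cannot be told apart.

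Reg3b and Reg3g are also strongly expressed in the ileum, so regional markers were read beside them. Of 13 small intestine markers tested between DKO and WT, 9 were higher and none lower, against 2.13% and 2.19% of all genes, with a median of 1.32 against -0.01. Enpep, a brush border aminopeptidase, read 1995 units on the array labelled DKO, 264 on that labelled Bmi1ΔIEC, 81.2 on that labelled Mel18ΔIEC and 29.9 on the WT array. Mttp, which loads lipid onto apolipoprotein B, read 376, 31.6, 29.5 and 18.7 units, and the ileal bile acid transporter Slc10a2 66.0, 7.33, 6.09 and 8.47. Lactase (Lct), a defining enzyme of the proximal small intestine, lay under the floor on every array, at most 8.23 units. Other members ran the other way and were called higher for DKO. Gata4 read 85.6, 19.9, 19.9 and 21.0 units on the arrays labelled DKO, Bmi1ΔIEC, Mel18ΔIEC and WT. In that order Alpi read 162, 39.3, 29.9 and 34.4 and Apoa1 89.8, 39.8, 27.0 and 32.5. Of the small intestine markers, 2 of 10 were higher between Bmi1ΔIEC and WT, 2 of 9 between Mel18ΔIEC and WT, and none lower in either. Of all genes tested, 5.76% and 3.15% were higher there. Enpep, Mttp, Slc10a2, Gata4 and Apoa1 lay under the floor on the WT array, so none of them could be called lower. In this list 3 of 13 genes that reached the floor (23.1%) were highest on the array labelled DKO and second on the WT array. The share was 13.1% of all such genes, and this comparison was also chosen after the values were seen. The distal colon factor Hoxb13 read 1899, 3537, 2834 and 2534 units. Of 11 colonocyte markers, 3 were higher and 2 lower between DKO and WT. The part of these markers in the Reg3 result was not tested.

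Paneth cells also secrete Reg3 lectins in the small intestine, and none of their markers was called higher against WT. Between DKO and WT, 2 of 4 tested were lower and none higher, against 2.19% and 2.13% of all genes. On the arrays labelled Bmi1ΔIEC and Mel18ΔIEC, 3 and 1 of 4 were lower than on WT, against 2.86% and 2.5% of all genes. The defensin Defa3 lay under the floor on all arrays, at most 6.42 units. Lysozyme (Lyz1) read 2655, 747, 1485 and 1608 units on the arrays labelled DKO, Bmi1ΔIEC, Mel18ΔIEC and WT. Acinar enzymes were read because Reg1, Reg2 and the Reg3 genes are also made in the pancreas. The carboxypeptidases Cpa1 and Cpb1 and the chymotrypsinogen Ctrb1 lay under the floor on all 4 arrays, the highest of them Cpa1 at 27.4 units. Other members were measured: 2 of 7 were higher between DKO and WT, 3 of 6 between Bmi1ΔIEC and WT and 3 of 6 between Mel18ΔIEC and WT, with none lower. Of all genes tested, 2.13%, 5.76% and 3.15% were higher in these 3 comparisons. The colipase Clps was higher in all 3, at 305, 426, 310.1 and 102 units on the arrays labelled DKO, Bmi1ΔIEC, Mel18ΔIEC and WT. Prss2, Ctrl and Cela3b lay above the floor on every array, between 49.6 and 65.1 units. The list's summed level, 4521, 15419.5, 15648 and 6594 units in the same order, was carried by Cela1 and Sycn, which were highest on the arrays where Reg3b and Reg3g were lowest.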

How the data were processed

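RNA of colonic epithelial cells (200 ng of total RNA each) was hybridised to 4 arrays, 1 per genotype. The authors deposited 1 intensity per probe set and array. The submitters' processing notes name Affymetrix Expression Console and RMA without versions. Values ran from 3.25 to 22803 units on a linear scale, and log2 was taken without a pseudocount or further scaling.

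Among the 45037 probe sets, 34945 carried a single symbol in the platform annotation, 932 carried more and 9160 were unnamed. RefSeq (GRCm38.p6) held 34741 of the single symbols and gave positions. A gene was read by its brightest probe set on average. The floor was percentile 50 of all values, 33.4 units. A call needed a 2-fold difference with the higher value at or above the floor, and "at least" folds set the brighter value against the floor. The number of arrays limits precision.

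The members and the 15 other gene lists were chosen with earlier results of these data known. Named genes were every Reg, Bmi1 and Pcgf2 probe set, the 5 nearest profiles of each varying Reg gene, 5 annotated genes on each side of the loci, and up to 3 members per list with the greatest differences in each comparison with WT. Outside this rule, Cpa1, Cpb1, Ctrb1, Defa3, Lct, Gata4, Alpi, Apoa1, Ncr1, Cxcr2, Mpo, Camp, Mmp8, Stat3, Hoxb13, Foxa1, Fut2, Pim1, Slpi, Pglyrp1, Dmbt1, Prss2, Ctrl and Cela3b were named after their values were seen. Upstream sequences were aligned globally with Biopython 1.88 (match 1, mismatch -1, gap opening -3, gap extension -0.5). Calculations used Python 3.11.15, numpy 2.4.6 and pandas 2.3.3, and calls were tested on simulated data. There were 9 alternatives: the mean over probe sets, no floor, percentile 75 as floor, 2 centrings, quantile normalization, a 1.5-fold rule, leaving out _s_at, _x_at and _a_at probe sets, and a pseudocount of 16.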

Additional observations from a re-analysis of the deposited data

Results flagged for a closer look

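Loss of a gene by label went with opposite calls for Reg3b and Reg3g on the different backgrounds, which is why these values deserve a second look. For loss of Bmi1, Reg3b differed by -5.26 between Bmi1ΔIEC and WT and by 9.76 between DKO and Mel18ΔIEC, and Reg3g by -4.65 and 9.10. For loss of Mel18, Reg3b differed by -5.30 between Mel18ΔIEC and WT and by 9.72 between DKO and Bmi1ΔIEC, and Reg3g by -4.18 and 9.57. With 1 array per genotype this difference between backgrounds was not tested.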

How the results depend on the processing

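No paired analysis was possible because each genotype has 1 array, and no replicate could be left out. The 9 alternatives gave 378 values of Reg genes; 372 kept their call or lack of one, 1 lost its call and 5 gained one. The sign changed for 1 value, an uncalled one under the floor: Reg1 between Mel18ΔIEC and WT, -0.04 after centring on brighter genes. Reg3b and Reg3g kept every call, with DKO minus WT from 3.40 to 4.46 for Reg3b, where the lowest leaves out the _s_at probe sets, and from 4.84 to 4.92 for Reg3g. Centring on brighter genes, Reg4 fell short between Bmi1ΔIEC and WT (0.99), leaving 0 Reg genes higher there. With arrays centred on their medians, Reg4 was called lower between DKO and Bmi1ΔIEC (-1.02), which made 1 Reg gene lower, and the 1.5-fold rule gave 1 lower there and 1 higher between Mel18ΔIEC and WT, again Reg4. Without a floor, the non-additive term of Reg3a (1.39) was called, as was its difference between DKO and Mel18ΔIEC (1.03), which made 3 Reg genes higher there. The 1.5-fold rule moved every background percentage by more than 1.5 times, to 6.13% higher and 6.56% lower between DKO and WT, 17.8% and 7.53% between Bmi1ΔIEC and WT, 11.8% and 6.28% between Mel18ΔIEC and WT, 9.92% and 21.3% between DKO and Bmi1ΔIEC, and 8.62% and 14.1% between DKO and Mel18ΔIEC. Centring on brighter genes gave 2.89% higher and 4.68% lower between Bmi1ΔIEC and WT, 1.95% higher between Mel18ΔIEC and WT, and 6.86% higher and 4.31% lower between DKO and Bmi1ΔIEC. The pseudocount gave 1.45% lower between DKO and WT, 3.79% higher between Bmi1ΔIEC and WT and 2.03% higher between Mel18ΔIEC and WT. Signal near background limits every value of Reg1, Reg2, Reg3a and Reg3d.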
